A study of Mus musculus with 12 samples.

Results

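The genes described here are 10 genes of lipid transport and lipid metabolism in the mouse oviduct: the apolipoproteins Apod and Apoe, the transporters Slc27a2 and Abcb11, the nuclear receptor Pparg with its coactivators Ppargc1a and Ppargc1b, and the enzymes Fasn, Mogat2 and Cyp27a1. They were selected on their signals, being taken by symbol from the genes that passed the study's overall two-way model of genotype and PMSG on these same arrays, out of 1821 genes located on all 12 arrays and 18194 genes named by 1 symbol on the array. Every difference between groups given for them was thus part of how they were chosen, and their values are a description with no independent test. PMSG-treated ESR1KO and PMSG-treated WT oviducts differed in all 10. Apod, Apoe, Slc27a2, Ppargc1a and Cyp27a1 were higher without ESR1, by 2.98-fold to 98-fold, and Pparg, Mogat2, Abcb11, Ppargc1b and Fasn were lower, by 2.27-fold to 12.7-fold.

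RNA of whole oviducts of immature C57BL/6 females was measured on Affymetrix Mouse Genome arrays in 4 groups of 3 arrays, and each array held RNA pooled from 3 to 4 mice. ESR1KO mice carried no intact copy of Esr1 (ESR1-/-, with or without the ZP3Cre transgene, whose Cre recombinase is made in the oocyte), and their WT siblings carried 1 floxed and 1 deleted copy (ESR1flox/-, with or without ZP3Cre), so that WT here means a single working allele. Both genotypes were killed untreated at 23 days of age or were given 5 IU PMSG at 23 days and killed 48 h later. PMSG, pregnant mare serum gonadotropin, stimulates ovarian follicles and their secretion of estradiol. The treated mice were also 48 h older, and an effect of age cannot be told apart from one of PMSG.

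Lipids move between cells on lipoproteins, whose apolipoproteins hold the particle together and bind its receptors, and enter or leave cells through membrane transporters. PPARG is a nuclear receptor that binds fatty acids and switches on genes of lipid uptake and storage, and the PGC-1 proteins encoded by Ppargc1a and Ppargc1b are coactivators that nuclear receptors recruit, best known for mitochondrial biogenesis and oxidative metabolism. ESR1 is itself a nuclear receptor, which binds estradiol and then DNA at paired half-sites, and estradiol is known to alter lipid metabolism in many tissues.

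Since several of these receptors read related DNA letters, the 250 bases before the transcription start were scanned in the RefSeq promoters of GRCm38.p6 for the nuclear receptor half-site GGTCA on both strands (TGACC on the strand shown). Promoters of 8 of the 10 genes were held, as 12 windows of 250 bases, 3 each for Apoe and Pparg because their transcripts start at several places. A half-site lay in 7 of the 12 windows, belonging to 5 genes, against 35.2% of 32851 promoters of all genes. No window held the full estrogen response element (GGTCA and TGACC separated by 3 bases, found in 0.0639% of all promoters) or a perfect direct repeat of AGGTCA spaced by 1 base (0.0335%), the element of PPARG and its partner RXR. Such matches are descriptions of letters and not of binding. The windows of Apod and Pparg (the first of its 3), which had the largest differences between the PMSG-treated genotypes in each direction over all arrays, and of Slc27a2 and Fasn, which held 2 half-sites each, are shown from 5′ to 3′ on the gene's strand with half-sites in capitals. They lie at chr16:31314809-31315058 on the minus strand (Apod), chr6:115360894-115361143 on the plus strand (Pparg), chr2:126552774-126553023 on the plus strand (Slc27a2) and chr11:120824548-120824797 on the minus strand (Fasn).
Apod: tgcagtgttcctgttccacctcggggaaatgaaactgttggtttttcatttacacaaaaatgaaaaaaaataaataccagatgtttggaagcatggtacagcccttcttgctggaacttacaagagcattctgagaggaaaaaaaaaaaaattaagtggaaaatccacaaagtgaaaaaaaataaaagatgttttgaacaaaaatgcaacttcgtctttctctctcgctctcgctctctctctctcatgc
Pparg: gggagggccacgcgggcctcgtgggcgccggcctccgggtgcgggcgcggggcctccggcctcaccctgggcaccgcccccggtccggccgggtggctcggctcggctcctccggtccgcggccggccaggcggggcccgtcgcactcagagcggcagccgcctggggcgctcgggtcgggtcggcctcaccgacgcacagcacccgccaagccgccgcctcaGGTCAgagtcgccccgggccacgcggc
Slc27a2: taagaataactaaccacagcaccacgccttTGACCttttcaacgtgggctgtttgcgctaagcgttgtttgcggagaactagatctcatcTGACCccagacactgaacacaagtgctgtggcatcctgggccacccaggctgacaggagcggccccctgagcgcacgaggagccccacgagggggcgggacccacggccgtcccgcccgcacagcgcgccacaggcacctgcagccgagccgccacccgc
Fasn: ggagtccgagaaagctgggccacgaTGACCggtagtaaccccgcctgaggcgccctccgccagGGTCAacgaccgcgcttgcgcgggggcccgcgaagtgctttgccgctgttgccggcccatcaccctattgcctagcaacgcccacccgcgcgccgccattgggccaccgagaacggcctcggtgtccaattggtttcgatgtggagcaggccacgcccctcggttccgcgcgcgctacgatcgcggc
The Apod window had no half-site, the Pparg window had 1, whose first base lay at -27 relative to the start, and those of Slc27a2 lay at -220 and -160 and those of Fasn at -225 and -187. The windows of Ppargc1a and Cyp27a1 also had none, and Abcb11 and the first window of Apoe had 1 each. Of the 5 genes that were higher without ESR1, Apoe and Slc27a2 had a half-site in a window held here, and all 3 lower genes with a window (Abcb11, Pparg and Fasn) did.

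All values are log2 signals, on which a step of 1 is a 2-fold difference, and a group mean under 4 was taken as near background, where a signal says little about the amount of RNA. Array medians ranged from 5.63 to 5.75. A difference between groups was called when it was at least 2-fold and its adjusted p (limma, Benjamini-Hochberg) was under 0.05. Esr1 itself was read at 12.97 ± 0.07 in WT, 12.55 ± 0.31 in PMSG-treated WT, 11.20 ± 0.87 in ESR1KO and 10.43 ± 0.28 in PMSG-treated ESR1KO (mean ± SD, n = 3 arrays). It was called lower in ESR1KO in both genotype comparisons, by 3.40-fold untreated and 4.34-fold with PMSG, but its signal in ESR1KO was far above background, and whether its probes lie in the deleted part is not given in the sources used here. Of the arrays, PMSG-treated WT replicate 3 stood apart: 10.9% of its probe sets were 2-fold or more away from the mean of the other 2 arrays of its group, against 0.829% to 5.84% on the other 11 arrays.

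The comparison of PMSG-treated ESR1KO with PMSG-treated WT asked how the genotypes differ 48 h after PMSG. ESR1 was deleted in the whole animal, and no estradiol level is given for either genotype in the sources used here. In this comparison 10 of the 10 genes were called, 5 higher (2.76% of all probe sets) and 5 lower (1.72%), and the 3 arrays of each group did not overlap for any of them. Over all 45101 probe sets 4.48% were called and 19.6% did not overlap, and among the 1821 located genes, which share the same choice, 48.4% were called. As the 10 genes were chosen through these same differences, their calls are a description and no independent test. In the other comparisons none of the 10 was called: 0 in PMSG-treated WT versus WT (0.251% of all probe sets called), 0 in ESR1KO versus WT (17.6% of the located genes), 0 in PMSG-treated ESR1KO versus ESR1KO (0.11%) and 0 in the interaction of genotype and PMSG (0.384%). At an unadjusted p under 0.05 limma gave 8, 4, 2 and 7 of the 10 in these comparisons, and an unmoderated two-way model gave 6, 3, 1 and 7. The share of other genes at that p was not counted, and the 10 were chosen on these arrays, so these counts show no effect. With the thresholds used here the unmoderated model also called 0. The study adjusted its overall model and then used pairwise p-values with a 2-fold minimum. This 0 is therefore not what the study's own rule would call. The last 3 comparisons could be fitted on located genes alone, so that their adjusted p is the largest it could be.

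**Figure D1:**
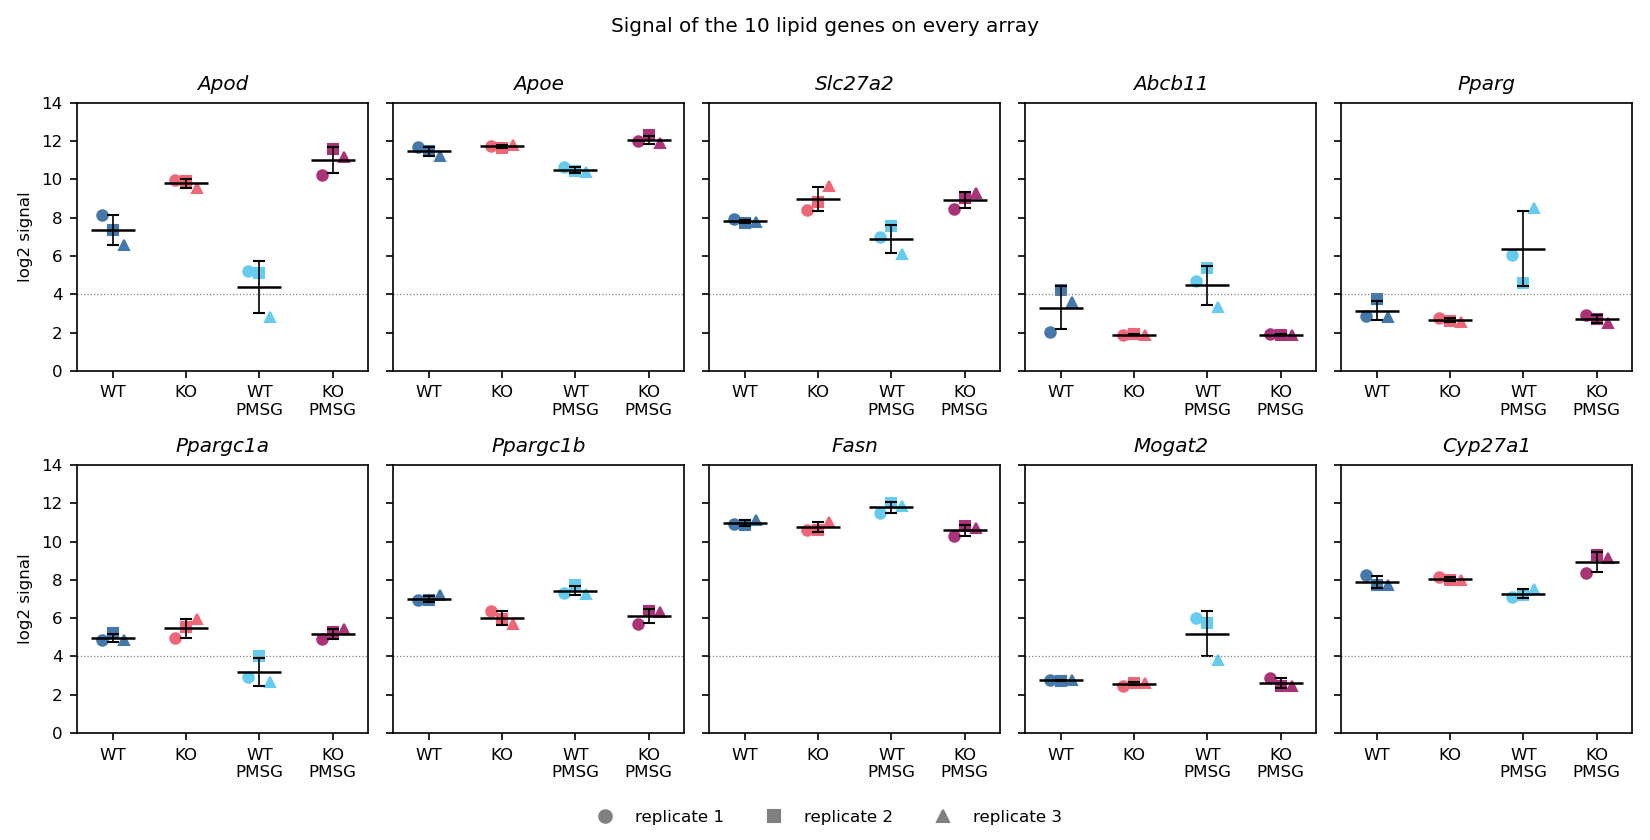
Log2 signal (vertical axis) of each of the 10 lipid genes on every array, by group (KO stands for ESR1KO), with the marker giving the replicate; black lines are means, bars are SD (n = 3) and the dotted line at 4 marks near background. PMSG-treated WT is the lowest group for Apod, Apoe, Slc27a2, Ppargc1a and Cyp27a1 and the highest for Abcb11, Pparg, Ppargc1b, Fasn and Mogat2.

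Apod, a small lipid carrier of the lipocalin family, covered the widest range. Untreated, its signal was 8.13, 7.38 and 6.55 on the WT arrays and 9.98, 9.91 and 9.54 on the ESR1KO arrays. With PMSG it was 5.22, 5.10 and 2.82 in WT and 10.25, 11.58 and 11.15 in ESR1KO. No 2 of the 4 groups overlapped, in the order PMSG-treated ESR1KO, ESR1KO, WT and PMSG-treated WT. The difference with PMSG was 6.62 ± 0.67 (log2, SE), or 98-fold. Without PMSG-treated WT replicate 3, which had the lowest Apod signal, it was 57.1-fold and still called. Untreated ESR1KO was 5.49-fold above WT, a difference that was called only in the fit that left out PMSG-treated WT replicate 3, where its size was the same and its error smaller. Within WT the signal was 7.85-fold lower with PMSG, or 4.57-fold lower without replicate 3, and within ESR1KO it was 2.27-fold higher, neither of them called. A second Apod probe set read 2.64 ± 0.29 on the ESR1KO arrays, near background, and was not read in the other groups.

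Apoe, the ligand through which lipoprotein remnants are taken up by receptors, was strongly expressed throughout and moved within narrow limits. It was read at 11.70, 11.46 and 11.21 in WT and 11.73, 11.66 and 11.82 in ESR1KO, which overlapped. With PMSG the arrays gave 10.64, 10.45 and 10.38 in WT and 11.98, 12.29 and 11.92 in ESR1KO. Both treated groups lay outside the range of the untreated group of their genotype, WT below and ESR1KO above. The difference between treated genotypes was 1.58 ± 0.16 (2.98-fold) and varied from 1.46 to 1.65 as each array was left out, while untreated ESR1KO and WT were 1.22-fold apart.

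Of the transporters, Slc27a2 encodes a protein that brings in long-chain and very-long-chain fatty acids and joins them to coenzyme A. Its signal was 7.92, 7.73 and 7.78 in WT, 8.40, 8.84 and 9.64 in ESR1KO, 6.99, 7.56 and 6.09 in PMSG-treated WT and 8.47, 9.05 and 9.29 in PMSG-treated ESR1KO. ESR1KO arrays with and without PMSG overlapped (means of 8.94 and 8.96) and all lay above both WT groups, and PMSG-treated WT lay below WT. The genotypes were 4.16-fold apart with PMSG, at 2.06 ± 0.35, and 2.22-fold without it. The difference with PMSG was not called in the unmoderated model or in 1 of the 9 fits that each left out 1 array.

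Abcb11, the bile salt export pump of liver cells, was near background on all 6 ESR1KO arrays, at 1.87 to 1.92 without PMSG and with it. The WT arrays gave 2.04, 4.23 and 3.62, and those of PMSG-treated WT 4.70, 5.35 and 3.34, which overlapped and spread over more than 2 log2 units within each group. The difference of -2.58 ± 0.60 with PMSG (5.96-fold lower in ESR1KO) was thus taken against a group at background, where the fold is uncertain. It was not called without a variance trend, with quantile normalization repeated or with a mean signal of at least 4, which removed the gene, nor in 6 of the 9 fits that each left out 1 array.

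Pparg was near background in 3 of the groups: 2.86, 3.73 and 2.84 in WT, 2.75, 2.61 and 2.58 in ESR1KO and 2.90, 2.72 and 2.51 in PMSG-treated ESR1KO. PMSG-treated WT alone had a clear signal, at 6.03, 4.61 and 8.48. All 3 arrays of that group were above all others, but they spanned 3.87 log2 units, the widest range of any of the 10 genes within a group. PMSG-treated ESR1KO was lower than PMSG-treated WT by 12.7-fold (-3.67 ± 0.80 on the log2 scale). That became 6.11-fold without PMSG-treated WT replicate 3 and 23.4-fold without replicate 2, and it was not called in 4 of the 9 fits that left out 1 array. Against WT, PMSG-treated WT was 9.41-fold higher and not called, and it was 4.53-fold higher and called without replicate 3.

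The coactivators lay on opposite sides. Ppargc1a gave 4.85, 5.21 and 4.85 in WT, 4.95, 5.51 and 5.94 in ESR1KO and 4.91, 5.26 and 5.41 in PMSG-treated ESR1KO, 3 groups that overlapped. In PMSG-treated WT it was 2.92, 4.04 and 2.66, below every other array, and 3.95-fold under PMSG-treated ESR1KO (1.98 ± 0.34). The PMSG-treated WT mean of 3.21 was near background, so that fold is uncertain. The array has 5 probe sets for Ppargc1a, and the one located here was the weakest on the ESR1KO arrays, at 5.47 ± 0.50, while the other 4 had means of 7.87 to 9.29 there and were not read in the other groups.

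Ppargc1b separated the genotypes with and without PMSG. WT arrays gave 6.93, 6.92 and 7.19 and PMSG-treated WT 7.30, 7.71 and 7.28, while ESR1KO gave 6.37, 5.94 and 5.70 and PMSG-treated ESR1KO 5.67, 6.36 and 6.31. The ESR1KO groups overlapped each other and were below all 6 WT arrays, by 2.01-fold untreated and by 2.49-fold (-1.32 ± 0.24) with PMSG. The difference with PMSG was not called when only the 6 arrays compared were fitted. The 2 genotype differences were themselves -0.31 ± 0.35 apart on the log2 scale, the smallest interaction of the 10 genes.

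Among the enzymes, Fasn, which builds palmitate from malonyl coenzyme A, had a high signal in every group. It was 10.92, 10.84 and 11.14 in WT and 10.59, 10.61 and 11.04 in ESR1KO, which overlapped. PMSG-treated ESR1KO overlapped ESR1KO at 10.27, 10.80 and 10.71, its replicate 1 being the lowest of all arrays, and PMSG-treated WT stood above all other arrays at 11.47, 12 and 11.86. The treated genotypes were 2.27-fold apart (-1.18 ± 0.19, ESR1KO minus WT), with values of -1.34 to -1.02 as each array was left out.

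Mogat2, which adds a fatty acid to monoacylglycerol in the intestinal route to triglyceride, was like Pparg near background in 3 groups, at 2.70 to 2.79 in WT, 2.48 to 2.61 in ESR1KO and 2.44 to 2.88 in PMSG-treated ESR1KO. PMSG-treated WT gave 6.01, 5.74 and 3.83. Here replicate 3 was the lowest of its group, whereas for Pparg it was the highest. PMSG-treated ESR1KO was 6.05-fold lower than PMSG-treated WT (-2.60 ± 0.48), or 9.70-fold lower without replicate 3. Without that array, PMSG-treated WT versus WT (8.73-fold against 5.44-fold with it) and the interaction were also called for Mogat2. Between the treated genotypes Mogat2 was not called in 2 of the 9 fits that each left out 1 array. Nor was it called in the unmoderated model, with only the 6 arrays compared, or with a mean signal of at least 4, which removed the gene. As PMSG-treated ESR1KO was near background, the fold is uncertain.

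Cyp27a1, the mitochondrial enzyme that makes 27-hydroxycholesterol and starts the acidic route of bile acid synthesis, did not separate the untreated genotypes, with 8.27, 7.74 and 7.71 in WT and 8.16, 8.01 and 7.99 in ESR1KO. With PMSG it was 7.08, 7.21 and 7.52 in WT, below the untreated WT arrays, and 8.35, 9.28 and 9.16 in ESR1KO, above the untreated ESR1KO arrays. The treated genotypes were 3.16-fold apart (1.66 ± 0.28). A second Cyp27a1 probe set read 2.60 ± 0.12 on the ESR1KO arrays, near background.

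**Figure D2:**
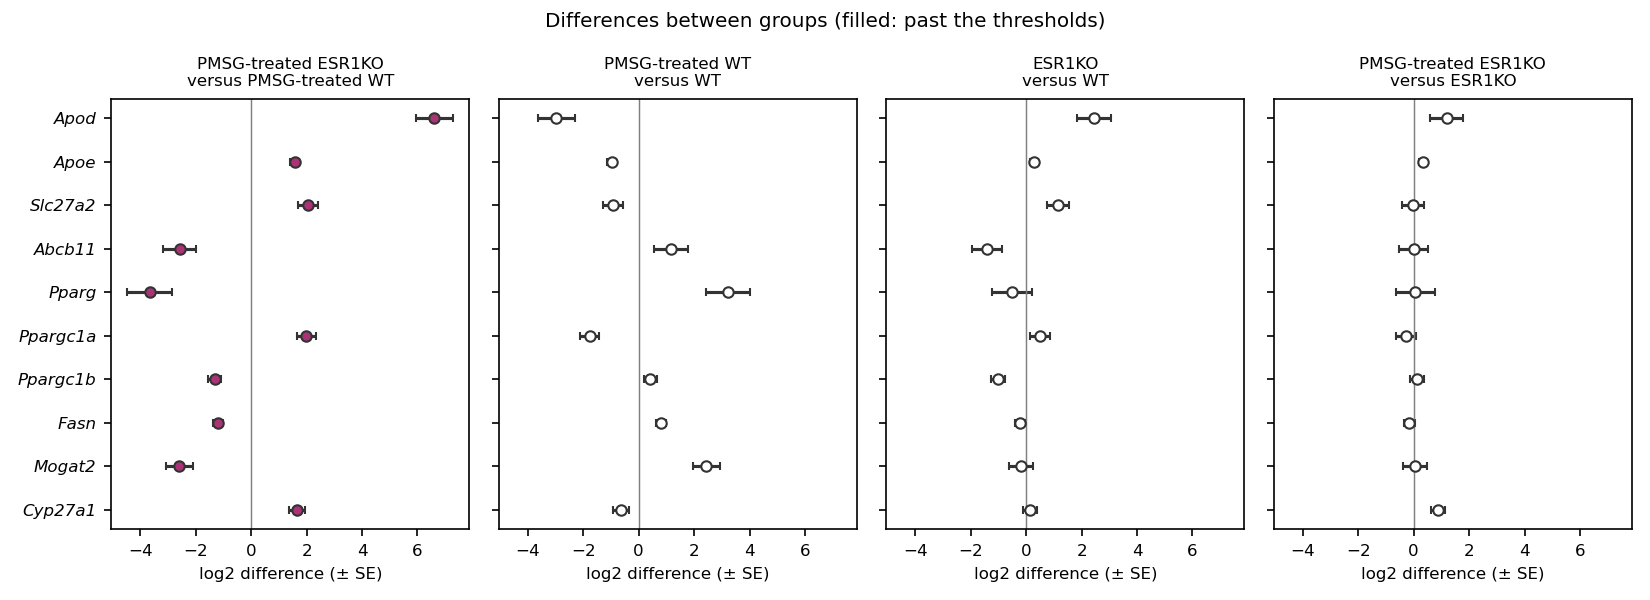
Log2 difference (horizontal axis, ± SE from limma) of each of the 10 lipid genes in 4 comparisons between groups of 3 arrays; filled points were at least 2-fold with an adjusted p under 0.05. All 10 points are filled in the first comparison, between the PMSG-treated genotypes, from -3.67 for Pparg to 6.62 for Apod, and none in the other comparisons, which in part share arrays with it.

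Set side by side, the comparisons fell into a few patterns. Without PMSG the genotypes did not overlap for 6 genes, Apod and Slc27a2 being higher in ESR1KO and Abcb11, Pparg, Ppargc1b and Mogat2 lower, against 78.7% of the located genes. For Abcb11, Pparg and Mogat2 the means of both groups were near background. The median absolute log2 difference between untreated genotypes was 0.50 over the 10 genes, against 0.62 over the located genes. With PMSG it was 2.02, against 1.01 over the located genes. In WT, 9 of the 10 genes had PMSG-treated arrays outside the untreated range (4 higher and 5 lower; 13.5% of all probe sets), Abcb11 being the exception. In ESR1KO, 3 of the 10 did, Apod, Apoe and Cyp27a1, all of them higher (21.9% of the located genes in either direction). The share for WT is over all probe sets and that for ESR1KO over genes chosen like the 10, so these shares cannot be compared. The median absolute difference with PMSG was 1.07 in WT and 0.13 in ESR1KO, against 0.38 and 0.20 over the located genes. These comparisons share arrays: PMSG-treated WT enters both the comparison of the treated genotypes and that within WT, so that a low or high PMSG-treated WT mean gives opposite signs in both.

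The spread among arrays was widest in PMSG-treated WT for Apod, Slc27a2, Pparg, Ppargc1a and Mogat2, and in another group for the other 5 genes. In PMSG-treated WT, replicate 3 was 2-fold or more from the mean of the other 2 arrays for 5 of the 10 genes, at -2.34 for Apod, -2.05 for Mogat2, -1.68 for Abcb11, -1.18 for Slc27a2 and 3.16 for Pparg on the log2 scale. Ppargc1a was at -0.82, and Apoe, Ppargc1b, Fasn and Cyp27a1 were between -0.22 and 0.37. Replicate 2 was as far away for 5 genes too, at -2.64 for Pparg, 1.33 for Abcb11, 1.25 for Ppargc1a, 1.08 for Apod and 1.02 for Slc27a2. Replicate 3 moved genes of both directions of the genotype difference down. Leaving out PMSG-treated ESR1KO replicate 3 left 5 genes called (Apod, Apoe, Cyp27a1, Fasn and Ppargc1b), and the unmoderated two-way model called 6, without Abcb11, Mogat2, Pparg and Slc27a2. Among the 1821 located genes, 618 and 646 were called in these fits, against 882 in the main one.

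**Figure D3:**
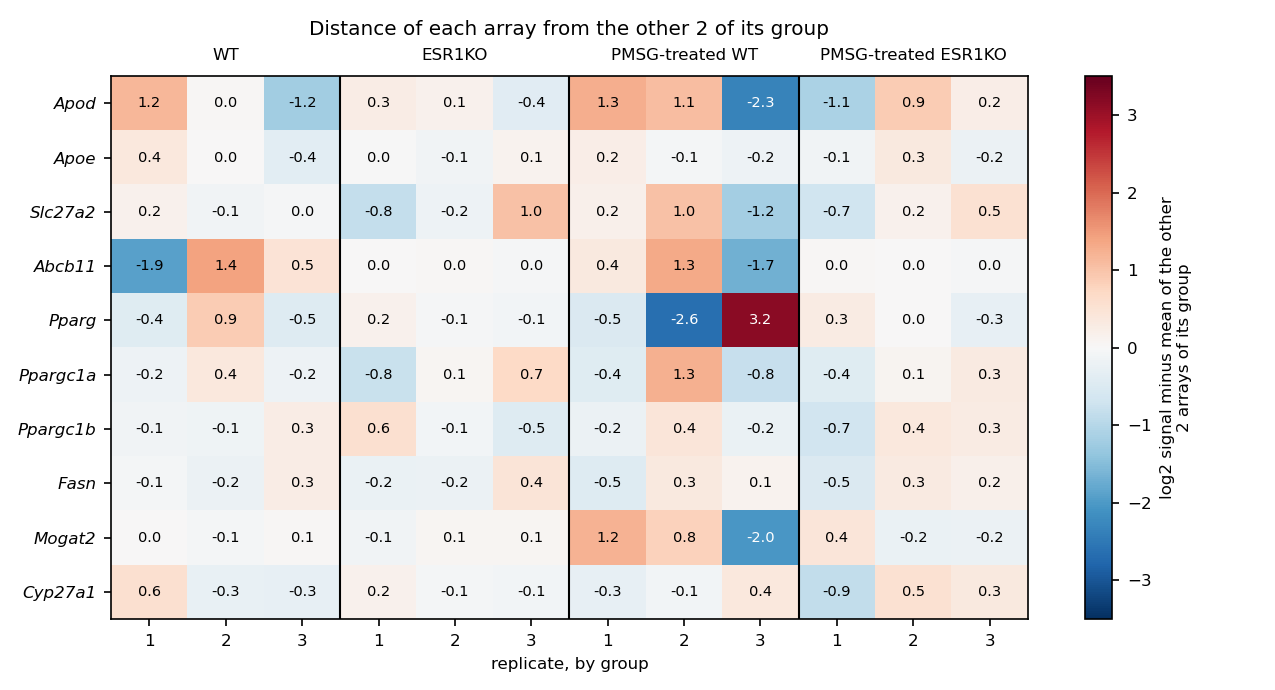
Log2 signal of each array minus the mean of the other 2 arrays of its group, for the 10 lipid genes (rows) and 12 arrays (columns, by group and replicate); red is higher and blue lower. The darkest cells are in PMSG-treated WT, where replicate 3 was at 3.16 for Pparg and -2.34 for Apod.

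Other genes of lipid metabolism were taken from 9 lists. Only genes in the held part of the study's list of changed genes can be named on the 9 arrays outside the ESR1KO group. That part ends in alphabetical order at Slc27a2. In all, 39 genes could be read, the 10 included. Most unread genes sort before that end but were not located among the changed genes. Of the apolipoprotein list 28 of 30 genes sort before it and 6 were located. For cholesterol synthesis these were 17 of 19 and 5, and for fatty acid oxidation 25 of 27 and 1. The readable genes were thus already chosen as changed. Of the 29 others, 4 were called higher and 7 lower in the PMSG-treated ESR1KO arrays than in the PMSG-treated WT arrays, a share under the 48.4% of all located genes, with a median log2 difference of -0.40, against 0.36 over the located genes and 0.01 over all probe sets. A gene that could not be read is not shown to be unchanged.

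Cholesterol synthesis had 5 readable genes of 19, of which 4 were called lower in PMSG-treated ESR1KO and none higher. They were Fdps, which makes farnesyl diphosphate (4.01-fold, -2.00 ± 0.27 on the log2 scale), Mvd (2.36-fold) and Msmo1 (2.32-fold), together with Fdft1 (2.08-fold), the first enzyme committed to sterols, which is named here after its value was seen. Nsdhl, at -0.78, was not called. In fatty acid synthesis 5 of 27 genes were readable and Fasn was the only one called, while the other 4 had differences of -0.76 to -0.34, all with lower arrays in PMSG-treated ESR1KO. Fdft1 and Msmo1 had signals of 10.4 and 9.05 in PMSG-treated ESR1KO and 11.4 and 10.3 in PMSG-treated WT, well above background, whereas those of Mvd were 4.54 and 5.78.

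In fatty acid uptake and binding, Fabp5, a fatty acid binding protein of epithelia, was 6.58-fold lower in PMSG-treated ESR1KO (-2.72 ± 0.18 on the log2 scale), opposite to Slc27a2, and the other 3 of 5 readable genes (of 24) were not called. Against WT, Fabp5 was also called 2.46-fold higher in PMSG-treated WT and 2.49-fold lower in ESR1KO. Acylglycerol synthesis had Mogat2 and Gpam, which starts glycerolipid synthesis (2.29-fold), lower among 4 readable genes of 28. Of 27 genes of fatty acid oxidation only Decr1 could be read, at 0.44, and was not called.

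The list of apolipoproteins, lipoprotein receptors and lipases had 6 readable genes of 30. Apoc1, which sits on lipoproteins beside APOE, was called 7.52-fold higher with Apod and Apoe in PMSG-treated ESR1KO, and 6.23-fold higher in ESR1KO than in WT. None of the 6 was called lower between the treated genotypes, while Gpihbp1, which holds lipoprotein lipase on capillaries, was called 8.23-fold lower in ESR1KO than in WT without PMSG. Its ESR1KO mean of 2.71 was near background, so that fold is uncertain. Among sterol and lipid ABC transporters, Abca5 (3.64-fold) and Abca8a (2.48-fold) were called higher and Abca9 was not called (3 of 21 readable). Oxysterol and bile acid genes had no readable gene beyond Cyp27a1 and Abcb11, of 23.

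In the list of PPAR receptors, partners and coactivators 9 of 25 genes were readable and 5 were called. Beside the 3 genes described above, Cebpd, a transcription factor of early fat cell formation, was 3.84-fold higher in PMSG-treated ESR1KO and 2.84-fold higher in ESR1KO than in WT. Nrip1, a corepressor of nuclear receptors, was 3.81-fold lower (-1.93 ± 0.14), and is named here after its value was seen. Ncoa1 and Ncoa2 were at 0.87 and 0.84 on the log2 scale, under the 2-fold limit.

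**Figure D4:**
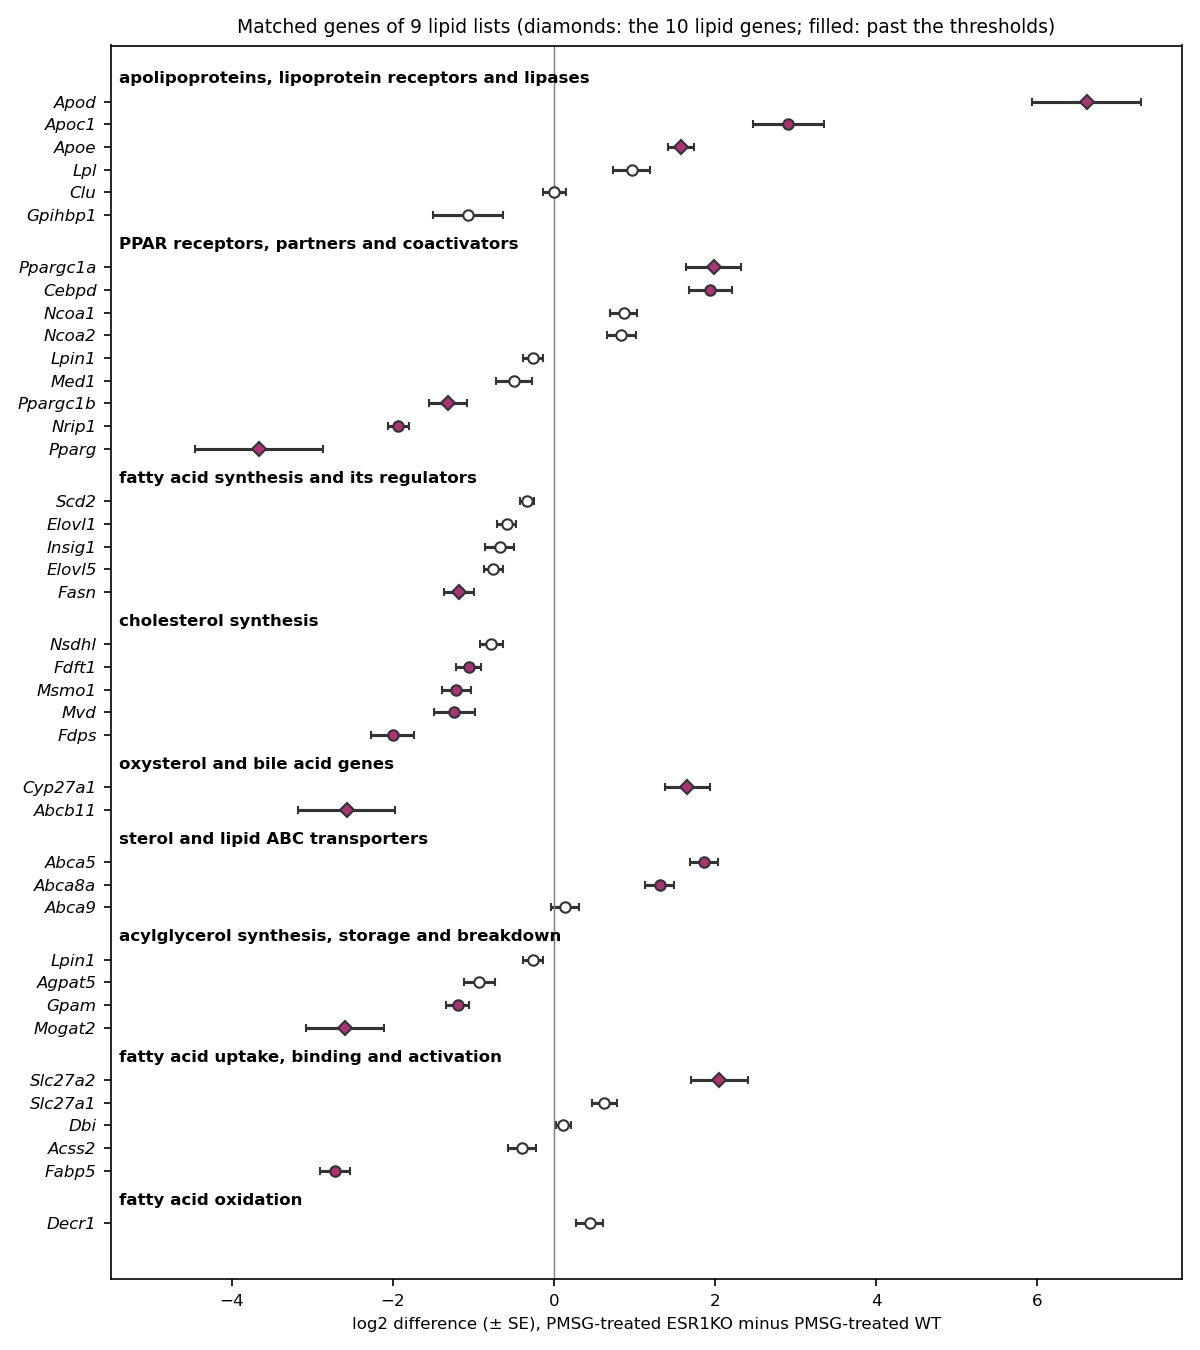
Log2 difference (± SE from limma) between PMSG-treated ESR1KO and PMSG-treated WT, 3 arrays each, for the readable genes of 9 lipid lists; diamonds are the 10 lipid genes and filled points passed the thresholds. The 5 cholesterol synthesis and 5 fatty acid synthesis genes all lie below 0, and Lpin1 stands in 2 lists.

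Whole oviduct holds epithelium, smooth muscle, stroma, vessels and immune cells, and in such tissue fewer cells of a type and less RNA per cell cannot be told apart. On the ESR1KO arrays, where all named probe sets can be read, the secretory marker Ovgp1 was at 15.9. The ciliated cell markers Cfap126, Rsph1 and Foxj1 were at 11.7 to 12.5 and smooth muscle Acta2 at 14.8. Secretory Sprr2f (3.35) and ciliated Spag6 (2.60) were near background, so most but not all of these oviduct markers had a clear signal. The markers named so far were not read in the other groups. Of 10 ovary markers on the array, 6 were near background on the ESR1KO arrays, among them Cyp11a1, Fshr, Amh and Cyp17a1, while Foxl2, Inha, Inhba and Star were at 5.30 to 8.48.

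Macrophages express Apoe strongly. All 4 readable macrophage genes of 12, Lyz1, Mrc1, Lyz2 and Csf1r, were called higher in PMSG-treated ESR1KO, by 2.52-fold, 2.00-fold, 2.84-fold and 3.08-fold. All 12 sort before the end of the held list of changed genes, but only these 4 were located in it. They were thus already chosen as changed, and 48.4% of all located genes were called. The mean log2 signal of these 4 genes on an array was 11.23 to 11.64 in PMSG-treated ESR1KO, 10.67 to 10.95 in ESR1KO, 9.82 to 10.21 in WT and 9.54 to 10.28 in PMSG-treated WT. Within WT, Apoe was 1.96-fold lower with PMSG, while this mean overlapped between the groups (10.07 in WT and 10.01 with PMSG). Of its genes, Mrc1 was 1.63-fold higher there, and Csf1r (1.33-fold), Lyz2 (1.26-fold) and Lyz1 (1.14-fold) were lower, none of them called. Between the untreated genotypes Apoe overlapped and the mean did not (10.85 in ESR1KO and 10.07 in WT). On the ESR1KO arrays all 12 macrophage markers were above background. Their part in the values of Apoe, Apoc1 and Cyp27a1 was not tested.

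Fat cells express Pparg and Fasn. Of 10 fat cell markers on the array, Adipoq, Lep, Retn, Cidec, Ucp1 and Lipe were near background on the ESR1KO arrays, where Pparg was too, and Pnpla2 (8.32), Fabp4 (6.29) and Plin4 (5.12) were not. These 9 could not be read in PMSG-treated WT, the group with a Pparg signal. Cidea, the readable one, was at 10.04 to 10.7 in PMSG-treated WT, 9.72 to 10.1 in WT, 7.34 to 8.87 in ESR1KO and 6.72 to 7.86 in PMSG-treated ESR1KO, and was called 8.41-fold lower in the last group than in PMSG-treated WT. On PMSG-treated WT replicate 3, where Pparg was highest, Cidea was the lowest of its group at 10.04. The part of fat tissue in these values was not tested.

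Several readable markers of other cells also differed between the genotypes. Between the PMSG-treated genotypes, ESR1KO against WT, the stromal Pdgfra was called 2.81-fold higher and Lum 4.30-fold lower. Of endothelium and blood, Pecam1 was called 2.40-fold and Alas2 5.39-fold lower. With PMSG the mean of Alas2 was 1.43 without ESR1 and 3.86 in WT, both near background, so its fold is uncertain. Kdr, of the same list, overlapped between the treated genotypes at -0.23 and was not called. Smooth muscle Actg2 at -1.64 and stromal Col1a2 at -1.13 were not called with PMSG either. The part of these cells in the values of the 10 genes was not tested.

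Among the 1820 other located genes, those with the profile most like each of the 10 over the 12 arrays were found as the smallest root mean square difference after centring on the gene's own mean. Fasn lay nearest to Mvd, of cholesterol synthesis, at 0.13 log2 units, then to Rmnd5b at 0.15, against a root mean square of 0.50 of its own centred profile. Apoe lay nearest to Pcdh19 (0.19) and Cdc42ep3 (0.21), Slc27a2 to Cxcl17 and Prosapip1 (0.23 each), Cyp27a1 to 2810030E01Rik (0.23) and Sfmbt2 (0.24), and Ppargc1b to Myo10 and Dapk3 (0.23 each). Ppargc1a lay nearest to Pacsin3 (0.30), Mogat2 to Bcl2l15 (0.36) and Pparg to Mmd2 (0.37) and Asb4 (0.45), both of them also near background in the other 3 groups. Apod, whose own value was 2.63, had G6pc2 (0.70) and Cdh16 (0.74) as its nearest, and Abcb11 had Cyth4 (0.48) and Fkbp11 (0.52). None of the 10 was among the 2 nearest of another.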

How the data were processed

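The authors hybridized RNA of whole mouse oviducts to 12 arrays and deposited log2 signals, made in Partek 6.6 from GCRMA background-corrected, quantile-normalized probes summarised by median polish, and gave no detection calls. Background correction compresses weak signals, so a fold against a group under 4 is uncertain. The number of arrays limits the precision, and the sources state that replicates were of different mice. The table has 45101 probe sets. Its 3 ESR1KO columns follow the probe set names, while the other 9 share another row order (correlations of 0.959 to 0.997 among themselves and of -0.146 to -0.123 with ESR1KO). Each gene was therefore located by the fold changes of the study's list of changed genes, used only as a key, of which 1997 entries were held. In all, 1821 were located on every array. Of 1997 decoys with shuffled folds, 5 matched. The 10 genes matched within 5.94e-05 log2 units, and the next row was at least 0.00892 away. A located gene has the listed folds by construction. No count, interval or depth applies to these signals.

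Columns were mapped to groups by their titles, and no column belonged to other samples. The comparisons of PMSG-treated WT with PMSG-treated ESR1KO and with WT used all rows of 9 arrays in limma 3.58.1 under R 4.3.3, with moderated variances that followed the mean signal and Benjamini-Hochberg adjustment. The other comparisons were fitted on located genes with the same prior (2.87 degrees of freedom) and adjusted over 45101 tests, a change from the single fit of 12 arrays that was planned. The fits and the matching were tested on simulated data. The alternatives dropped the variance trend, the moderation (a two-way model), probe sets with a mean under 4, the fold minimum, the arrays outside the comparison (leaving 6) or each array in turn, added the replicate number as a block, or repeated quantile normalization. On 9 arrays the unmoderated model had 3 groups, without untreated ESR1KO. The authors' columns of fold changes and p-values were not used as results.

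Members, gene lists and tests were chosen with earlier results of these data known. Named were the 10 genes and Esr1, up to 3 called genes of each lipid list by size of difference, up to 3 readable genes of each marker list by mean signal (others where a count is explained), and up to 2 genes of most similar profile. The probe set was the listed one. Promoters came from RefSeq (GRCm38.p6); Mogat2 and Ppargc1b had none in the table used.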

Additional observations from a re-analysis of the deposited data

Results flagged for a closer look

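For Apod, Apoe and Cyp27a1 every PMSG-treated array lay above every untreated array in ESR1KO and below every untreated array in WT. Arrays moved in opposite directions in this way for 5.55% of the located genes (3.62% in this direction). The difference with PMSG in ESR1KO minus that in WT was 4.16 ± 0.87 on the log2 scale for Apod (1.19 against -2.97), 1.29 ± 0.21 for Apoe (0.33 against -0.97) and 1.51 ± 0.35 for Cyp27a1 (0.88 against -0.63). The interaction was not called for any of the 3 by limma. Since they were chosen on the same comparisons, these values are a description. Without PMSG-treated WT replicate 3 the Apod value was 3.38.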

How the results depend on the processing

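Between the PMSG-treated genotypes 10 of the 10 genes were called, but 6 with the unmoderated two-way model and 5 to 10 as each array was left out, 5 without PMSG-treated ESR1KO replicate 3. The other alternatives called 7 to 10. Calls among the 1821 located genes fell too, from 882 to 646 with the unmoderated model and to 618 without that array. As each array was left out, 0 to 2 genes were called in PMSG-treated WT versus WT (Ppargc1a without PMSG-treated WT replicate 2, Mogat2 and Pparg without replicate 3), 0 to 1 in ESR1KO versus WT (Apod) and 0 to 1 in the interaction (Mogat2), the last 2 without PMSG-treated WT replicate 3. Without that replicate 3, calls among the located genes also rose, from 68 to 153 in PMSG-treated WT versus WT. They rose from 321 to 448 in ESR1KO versus WT and from 7 to 29 in the interaction. Without PMSG-treated WT replicate 2 they fell to 48 in PMSG-treated WT versus WT. In PMSG-treated ESR1KO versus ESR1KO, 0 of the 10 genes were called in every alternative. The cause was not tested. No called log2 difference changed sign. In PMSG-treated ESR1KO versus ESR1KO, 12 of 140 values did, none of them called, and in the other comparisons 0 did. With the replicate block 9 genes were called (not Pparg, adjusted p = 0.0575) and 0 in the other comparisons. Same-numbered arrays correlated over 0.1 in their deviations in 5 of 9 pairs (-0.124 to 0.356). In no comparison made here were all 3 pairs over 0.1, though they were between WT and PMSG-treated ESR1KO (0.123 to 0.312), and no source ties the numbers to a shared litter or day, so the samples were taken to share only a number.

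Groups of 3 pooled arrays, group means under 4 for Abcb11, Pparg, Mogat2 and Ppargc1a, and single located probe sets limit these values. A gene not called in a comparison fitted on located genes is not shown to fail the test there.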
